A study of Mus musculus with 12 samples.

Results

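The junctions, keratins and regulators of epithelial cells were described through 41 genes: 3 cell adhesion genes listed with the adherens junction (Cdh1, Cdh3, Epcam), tight junction strand genes (7 claudins, Ocln, Marveld2, Marveld3 and F11r), plaque and polarity genes (Tjp1, Tjp3, Cgn, Crb3), desmosome genes, 5 keratins, 2 connexins, 6 transcription factors, the splicing factors Esrp1 and Esrp2, and the membrane proteases Prss8 and St14. Accessible regions were assigned to a gene when they overlapped its body or the 10 kb on each side (GENCODE M21, mm10). This gave 260 of the 176680 accessible regions in the table, or 0.147%, and none was shared between members. The number per gene ran from 1 at Cldn2 to 38 at Tjp1, with a median of 5. All 260 were windows of 201 bases, so their levels can be set side by side between genes. Of these, 133 had a start site of a member as their nearest, and 19 that were not a promoter window of a member lay within 1 kb of the start site of another gene, so a region counted with a member is not known to act on it.

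Epithelial cells are held together by adherens junctions, tight junctions, desmosomes and gap junctions, and their cytoskeleton is built from keratins. The genes for these structures are kept active by epithelial transcription factors of the GRHL, OVOL, ELF and KLF families. Fibroblasts largely lack this program, and factors such as ZEB1, ZEB2 and SNAI1, which drive epithelial-to-mesenchymal transition (EMT), bind E-boxes in the promoters of Cdh1 and related genes. Hepatocytes are epithelial cells as well, joined by E-cadherin, tight junctions around bile canaliculi and the gap junction protein connexin 32, and they use Krt8 and Krt18 as their keratin pair. Part of this gene set is thus in use in hepatocytes and silent in fibroblasts.

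The study profiled open chromatin by ATAC-seq in primary mouse embryonic fibroblasts (MEFs) of the C57BL/6N strain, wild type, from E13.5 embryos. The table used here compares 2 groups of 3 libraries each, collected on day 2 of doxycycline. Cells of 4in1_GFP_OE carried lentiviral rtTA, the 4in1 reprogramming vector (LV.4TF), which starts conversion to induced hepatocytes, and tetO-GFP. Cells of 4in1_Prox1_OE carried the same rtTA and 4in1 vectors with tetO-FLAG-mmProx1 in place of GFP, so that 4in1, rtTA and doxycycline were common to both groups. The other groups of the series, MEF and Prox1_OE, have no table here and were not analysed. The cells were transduced in bulk, and the share of cells that took up every vector is not given in the sources used here.

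Each value is the authors' mean of normalized reads over the 3 libraries of a group, deposited as log2. The table holds no value for a library, so the spread between replicates cannot be given and no test could be run here. The authors' own test results were not used. Every difference below is a difference of 2 group means, written as 4in1_Prox1_OE minus 4in1_GFP_OE. Whether a difference exceeds replicate error was not tested. Depth per library is unknown, and the labels do not say whether the libraries of a group come from separate cultures. Over all regions the difference had a median of -0.42, and the summed level fell from 31016876 normalized reads to 23306866. Where that general shift is taken as the zero point, every difference below is higher by 0.42. The labels were checked at the Prox1 gene: 3 windows over Prox1 exons went from 3.4, 13.8 and 16.1 mean reads with GFP to 1632, 2078 and 6847 with Prox1. Reads of the transgene and of the endogenous exons cannot be told apart there. At the promoters, 14 of 14 fibroblast marker genes had a promoter window, with levels of 7.28 to 9.62 (log2) in 4in1_GFP_OE, against 2 of 14 hepatocyte markers (Foxa1 and Foxa2, with Alb, Hnf4a and 10 others having none), 4 of 5 cholangiocyte markers (Epcam, a member, among them), 2 of 3 endothelial markers and 1 of 2 blood markers. Krt19, a cholangiocyte keratin, had 303 mean reads at its promoter with GFP and 157 with Prox1. At these marker promoters the median difference was -0.48 for fibroblast, 0.30 for hepatocyte, -0.70 for cholangiocyte, -0.81 for endothelial and -0.51 for blood genes. The part of other cell types in the results below was not tested, and in bulk ATAC-seq a change in every cell cannot be told apart from a change in the share of cells.

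5 windows show the range of what happened at these genes, and their sequences are printed because they hold some of the largest lower and higher values among the members. All are on the plus strand of GRCm38. Capitals mark letters of a searched motif: AP-1 (TGANTCA), TEAD (GGAATG) or the PROX1 half-site (AAGACG), on either strand. The first is in an intron of Cdh1 at chr8:106614793-106614993 and holds an AP-1 and a TEAD match. The next is in an intron of Tjp1 at chr7:65403332-65403532, with an AP-1 match. Both were lower with Prox1. The other 3 were higher with Prox1, in an intron of Cdh3 at chr8:106535536-106535736 and upstream of Esrp1 at chr4:11394422-11394622, neither with a match, and in another Tjp1 intron at chr7:65492180-65492380, where a TEAD match is followed by a PROX1 half-site inside a short repeated stretch.
Cdh1 intron: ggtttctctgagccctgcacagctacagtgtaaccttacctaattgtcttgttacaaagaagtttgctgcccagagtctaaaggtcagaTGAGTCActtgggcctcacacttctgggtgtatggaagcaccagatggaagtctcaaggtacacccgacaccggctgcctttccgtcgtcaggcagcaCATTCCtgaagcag
Tjp1 intron, lower: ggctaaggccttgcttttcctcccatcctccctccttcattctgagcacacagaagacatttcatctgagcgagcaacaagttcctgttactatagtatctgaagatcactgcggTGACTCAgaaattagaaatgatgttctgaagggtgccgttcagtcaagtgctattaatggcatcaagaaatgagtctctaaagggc
Cdh3 intron: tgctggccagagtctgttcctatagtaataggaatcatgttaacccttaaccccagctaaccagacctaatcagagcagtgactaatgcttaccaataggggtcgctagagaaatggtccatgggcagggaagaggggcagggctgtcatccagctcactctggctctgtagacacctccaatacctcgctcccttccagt
Esrp1 upstream: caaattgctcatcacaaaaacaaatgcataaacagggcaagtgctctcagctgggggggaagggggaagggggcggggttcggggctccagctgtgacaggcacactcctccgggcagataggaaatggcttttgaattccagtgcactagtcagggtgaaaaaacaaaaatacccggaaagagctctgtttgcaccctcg
Tjp1 intron, higher: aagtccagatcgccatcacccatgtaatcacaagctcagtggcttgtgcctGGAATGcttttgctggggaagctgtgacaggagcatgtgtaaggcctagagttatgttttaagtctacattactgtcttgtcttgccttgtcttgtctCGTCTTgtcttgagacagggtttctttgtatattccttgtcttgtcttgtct

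Over all 260 windows, the values at the members were close to those of all regions. The members had a median difference of -0.30, and 184 (70.8%) were lower with Prox1, against a median of -0.42 and 72.3% lower, 27.7% higher, over all regions. Past 2-fold, 57 (21.9%) were lower, where 24.4% of all regions were, and 14 (5.38%) were higher, where 8.33% were. The 209 windows outside any promoter had a median of -0.50, with 154 lower and 55 higher, against 71.5% lower and 28.5% higher over all regions outside promoters. Past 2-fold, 55 (26.3%) of them were lower and 12 (5.74%) higher, beside 26.7% and 9.07%. The members' share of lower distal windows was near the background. Intron windows had a median of -0.50 (119 windows), upstream flanks -0.48 (44), downstream flanks -0.25 (52), and windows at other genes' promoters -0.18 (19). The 13 exon windows had a median of 0.23 and 9 of them were higher, while exon windows outside promoters over the whole table had a median of -0.24 with 36.7% higher. By role, the medians over all windows were -0.76 for adhesion genes (11 of 28 over 2-fold lower), -0.42 for plaque and polarity (13 of 53), -0.31 for tight junction strands (9 of 47) and for desmosomes (10 of 43), -0.30 for gap junctions (3 of 7), -0.28 for splicing factors (2 of 15), -0.26 for keratins (5 of 19), -0.11 for transcription factors (1 of 35) and -0.05 for proteases (3 of 13). Few genes made up the larger of these counts. Cdh3 and Cdh1 held 7 and 4 of the 11 adhesion windows over 2-fold lower. Tjp1 held all 13 of plaque and polarity, and Pkp2 held 7 of the 10 at desmosomes. At least 1 window over 2-fold lower was found at 23 members (56.1%) and at least 1 over 2-fold higher at 12 (29.3%), where 54.1% and 32.2% of the protein-coding genes with a window had one and the median number of windows per gene was 5 as well, with 7 members in both counts and 13 in neither.

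**Figure D1:**
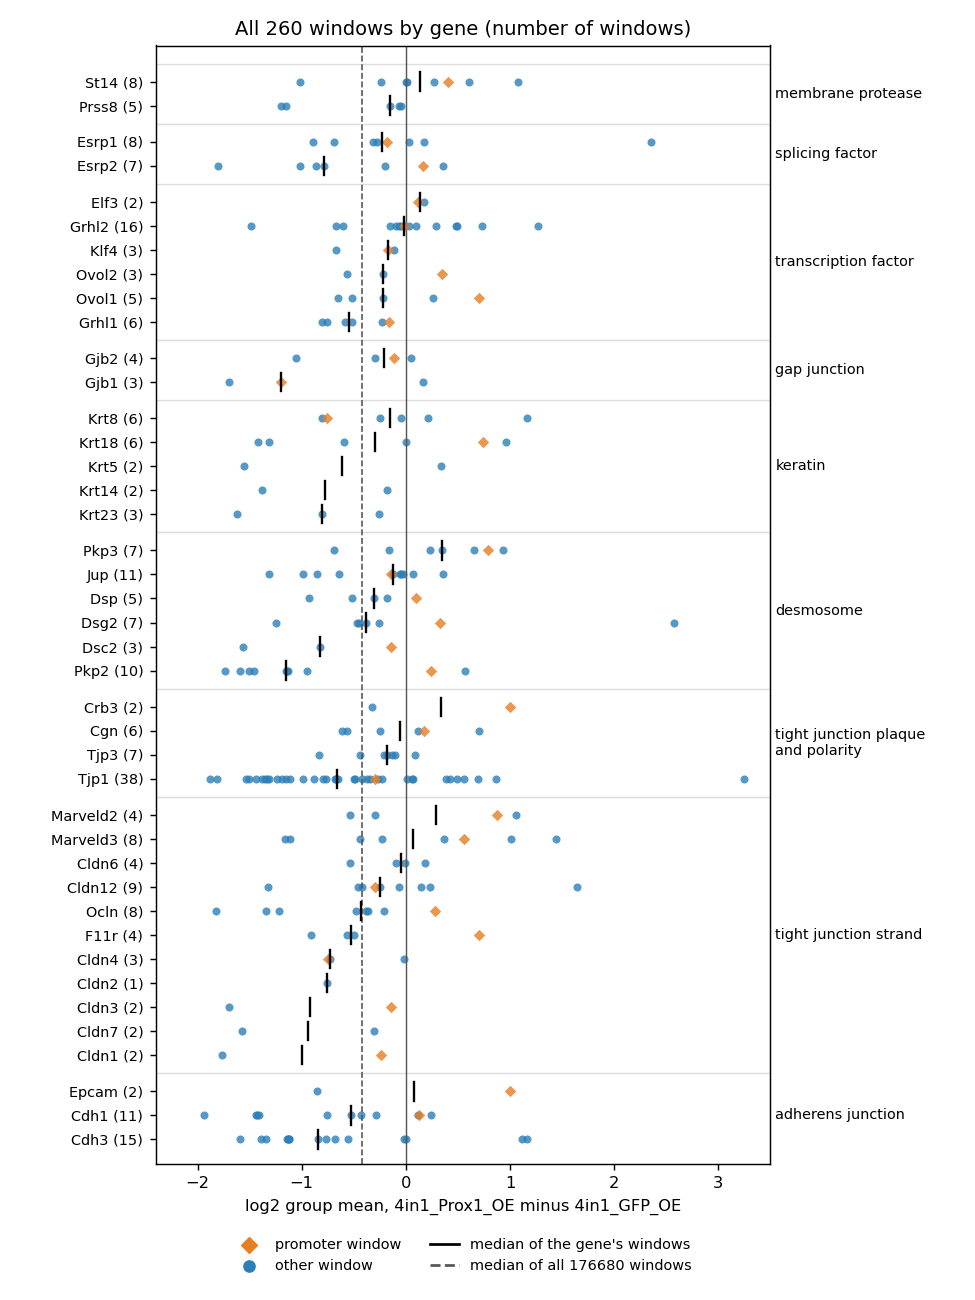
Difference of log2 group means (4in1_Prox1_OE minus 4in1_GFP_OE) for each of the 260 windows, by gene and role; diamonds are promoter windows, circles other windows, black ticks the median of a gene, the solid line 0 and the dashed line the median of all regions (-0.42). Promoter diamonds of Pkp2, Ocln, F11r and Cdh1 lie to the right of most other windows of the same gene.

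Promoters of the members had more reads with Prox1 in 18 of 32 cases, while most promoters of other genes had fewer. A promoter window lies within 1 kb of a start site of its gene (GENCODE M21 basic), and 32 members had exactly 1. The other 9, Cdh3, Tjp3, Cldn2, Cldn6, Cldn7, Krt5, Krt14, Krt23 and Prss8, had none. These 18 were 56.2% of the 32, and the promoter windows had a median difference of 0.13, quartiles of -0.16 and 0.44, and a range of -1.20 to 1.00. Across 13879 windows that were the strongest promoter window of a protein-coding gene, the median was -0.19, and 18.0% of them were higher and 82.0% lower. With promoters set at 2 kb, the members' median was 0.04. The gap between members and other promoters depended on the zero point. With 0 at the median of all regions, 29 of 32 member promoters (90.6%) and 83.0% of all promoters were higher, and with 0 at the median of the 10% of regions with the highest level, 27 (84.4%) and 64.5% were. Past 2-fold, 2 member promoters were higher (Epcam and Crb3) and 1 was lower (Gjb1), where 1.22% of all promoters were higher and 2.75% lower. Most of the members' promoters were weak: their levels with GFP ranged from percentile 3.91 to percentile 96.4 of all promoters, with a median at percentile 16.8. Weak promoters were more often higher with Prox1 in general. With all promoters split by mean level into 5 classes of equal size, 9 of 15 member promoters in the weakest class were higher against 42.3% of all in that class, and in the next class 6 of 9 against 28.8%. Among the promoters below the median for level and above it for GC content, 12 of 14 members were higher against 43.6% of all, and among those below the median for both, 5 of 13 against 23.4%. The part of level and base composition in the members' values was not tested further.

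**Figure D2:**
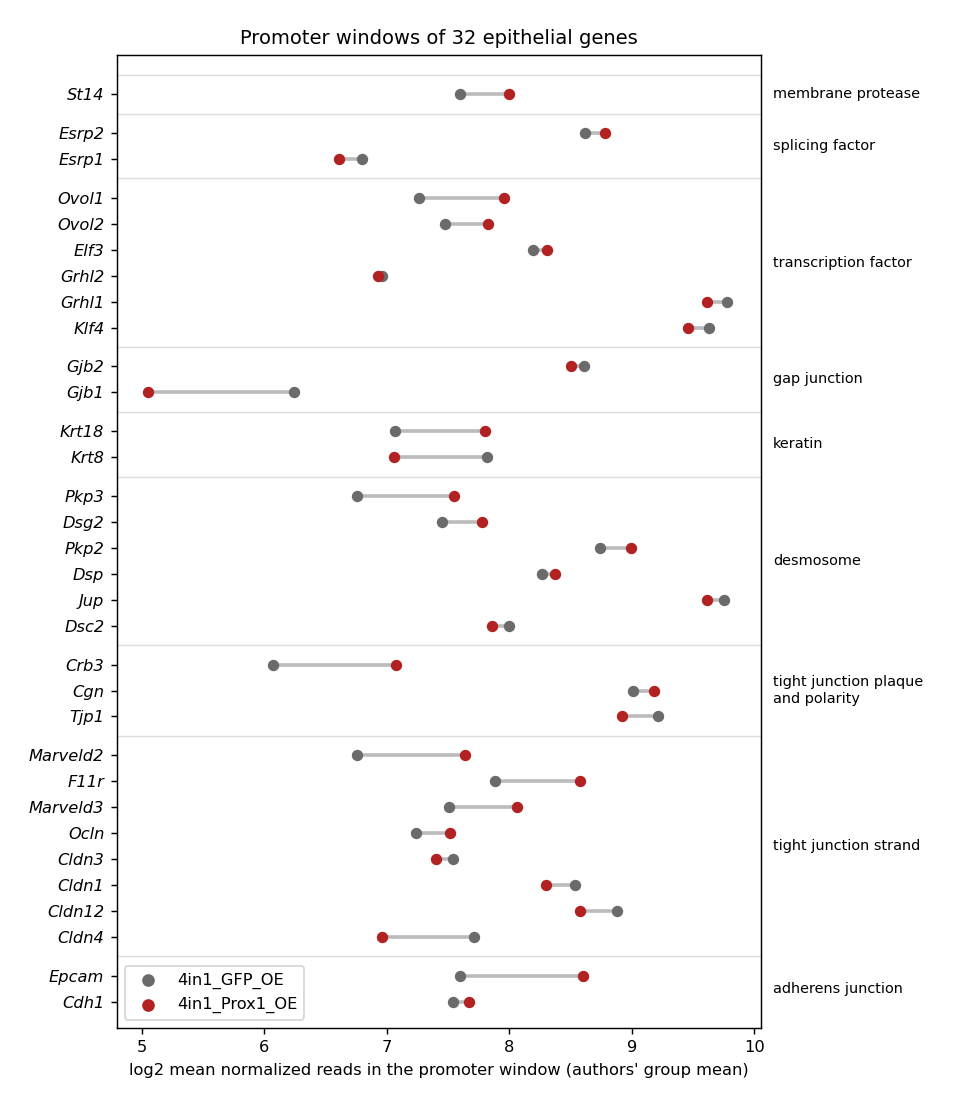
Authors' mean of normalized ATAC-seq reads (log2) in the promoter window of 32 members, grouped by role, with 4in1_GFP_OE in grey and 4in1_Prox1_OE in red; each point is a group mean over 3 libraries and no error is given in the table. Epcam moved from 7.60 to 8.60 and Gjb1 from 6.24 to 5.05, while Grhl2 stayed near 6.95.

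Among the adhesion genes, Epcam had the largest promoter difference. Epcam codes for an adhesion molecule of epithelial progenitors and bile duct cells, and hepatocytes of the adult liver lack it. Its promoter window at chr17:87636572-87636772 went from 194.0 to 388.9 mean reads, a difference of 1.00, while its only other window, in the upstream flank, went from 51.2 to 28.5. Cdh1, which codes for E-cadherin, behaved differently at its promoter and inside the gene. The Cdh1 promoter window had 186 mean reads with GFP and 203 with Prox1, a difference of 0.13. Within the introns, 4 windows in the first 23 kb were over 2-fold lower: 156 to 57.4 reads, 88.8 to 33.0, 190.4 to 49.8 in the window printed above, and 379 to 143. Summed over its 11 windows, Cdh1 went from 2171 to 1410 reads, a log2 ratio of -0.62. Cdh3 codes for P-cadherin, found in basal layers of other epithelia, and lies just upstream of Cdh1. It had no promoter window, and 7 of its 15 windows were over 2-fold lower, the strongest of them from 535 to 212 reads. In the same gene, 2 neighbouring windows were over 2-fold higher, from 76.7 to 167 reads in the printed intron window and from 38.8 to 86.6 in an exon. The Cdh3 intron window had the largest higher value among members' windows at or above the median level of all regions (1.12).

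**Figure D3:**
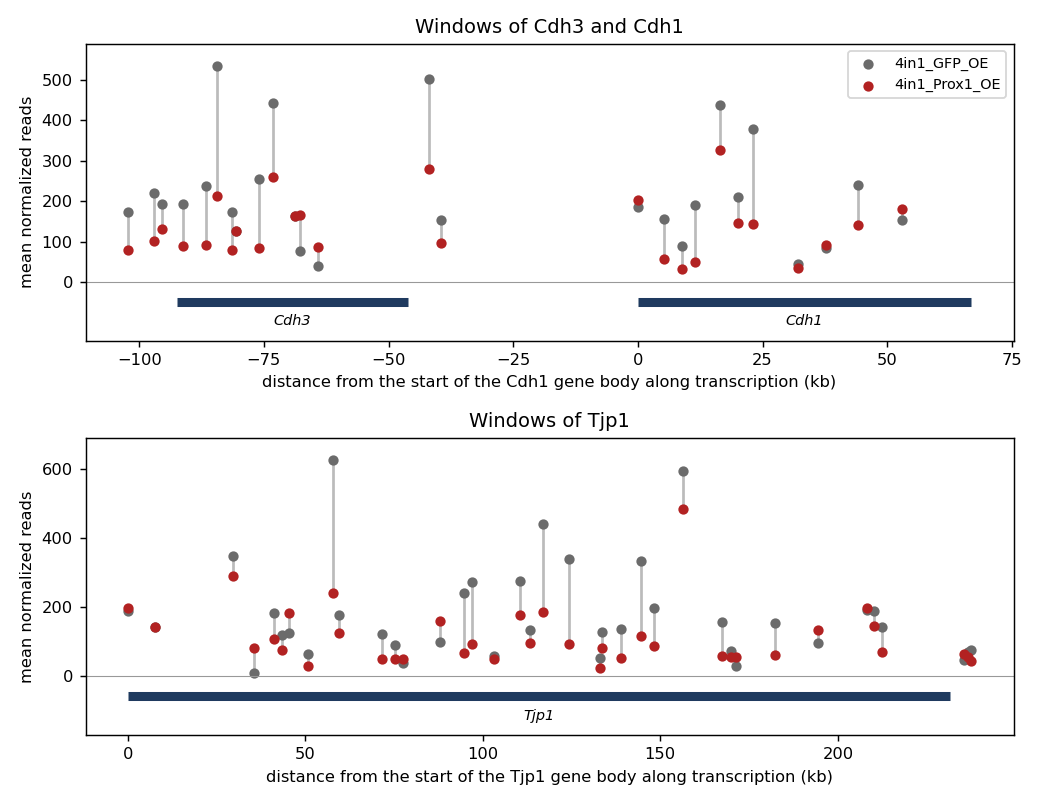
Mean normalized reads per group (grey 4in1_GFP_OE, red 4in1_Prox1_OE) in each window, against distance in kb from the start of the Cdh1 gene body (top) or the Tjp1 gene body (bottom); bars are gene bodies and lines join the 2 group means of a window. The Cdh1 promoter at 0 kb held 186 and 203 reads, while windows at either end of Cdh3 and in the first 23 kb of Cdh1 were lower with Prox1.

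Among the tight junction strand genes, 4 promoters were higher and 4 lower, where 18.0% of all promoters were higher and 82.0% lower. Their levels with GFP ran from percentile 7.81 (Marveld2) to percentile 43.1 (Cldn12) of all promoters. By mean level, 42.3% of all promoters in the weakest class were higher, 28.8% in the next and 12.4% in the middle class. Marveld2, Marveld3 and Ocln code for the MARVEL family proteins tricellulin, MarvelD3 and occludin, and F11r for the junctional adhesion molecule JAM-A. All 4 had higher promoters with Prox1: Marveld2 from 108 to 199 reads (0.88), F11r from 236 to 384 (0.70), Marveld3 from 182 to 267 (0.56) and Ocln from 151 to 183 (0.28). An exon window of Marveld2 also went from 77.3 to 162 (1.06). The 4 lower promoters were those of claudins, which seal the strand. Cldn4 went from 209 to 125 (-0.75), Cldn12 from 471 to 382 (-0.30), Cldn1 from 372 to 315 (-0.24) and Cldn3 from 186 to 168 (-0.14). After removal of the general shift of -0.42, only Cldn4 among these 4 was still lower. The division did not follow the gene families beyond the members: in the wider epithelial list described below, the 5 other claudins with a promoter window were higher, at 0.19 for Cldn5, 0.18 for Cldn9, 0.02 for Cldn10, 0.72 for Cldn11 and 0.27 for Cldn23, and the F11r relatives Jam2 and Jam3 were lower (-0.22 and -0.28). Past 2-fold, distal windows of the claudins included lower and higher ones. Downstream of Cldn3 a window went from 362 to 111 reads, downstream of Cldn1 from 93.6 to 27.5, and upstream of Cldn7 from 163 to 54.9, while an intron window of Cldn12 went from 25.9 to 80.7. Cldn6, an embryonic claudin, had 4 windows and none past 2-fold. Cldn2, the leaky-type claudin, had its single window in the downstream flank at 62.9 and 37.2 reads. Ocln combined its higher promoter with 3 intron windows over 2-fold lower, the strongest from 474 to 187 reads.

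Promoters of the plaque and polarity genes ranged from weak to strong. Crb3, an apical polarity determinant, had the weakest promoter of this group and the largest difference, 67.4 to 135 reads (1.00). Cgn, the cytoskeletal linker cingulin, went from 515 to 581 (0.17), and Tjp1, the scaffold ZO-1, from 594 to 484 (-0.30). This Tjp1 promoter lies 156.5 kb inside the annotated gene body, and the window at the outer start of the gene body had 189 reads with GFP and 198 with Prox1. Elsewhere in its introns Tjp1 carried 13 windows over 2-fold lower, among them 341 to 92.9 reads in the intron window printed above, 240.1 to 68.4, and 627 to 241 in the strongest. Its only window over 2-fold higher was the printed one with the PROX1 half-site, at 8.6 and 81.9 reads. Over all 38 windows Tjp1 went from 6778 to 4343 reads, a log2 ratio of -0.64. Tjp3 (ZO-3) had no promoter window and none past 2-fold.

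At desmosome genes, 4 of 6 promoters were higher with Prox1, where 18.0% of all promoters and 42.3% of those in the weakest class were. Pkp2, the plakophilin of simple epithelia and heart, had a promoter that went from 428 to 507 reads (0.24), and 7 of its 9 other windows were over 2-fold lower, the strongest from 496 to 226. Its windows had the lowest median among members with at least 5 windows, -1.15. Pkp3, a plakophilin of stratified and simple epithelia, also had a higher promoter, from 108 to 187 (0.79), and 5 of its 7 windows were higher. Promoters of Dsg2 and Dsp, a desmosomal cadherin and the linker desmoplakin, were higher by 0.33 and 0.10. Those of Dsc2 and Jup (plakoglobin) were lower by less than the general shift, at -0.14 each. Jup had among the strongest promoters of the set, with 862 and 784 reads.

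The hepatocyte keratin pair had promoter differences of opposite sign, with or without the general shift. Krt18, the type I partner, had 134 promoter reads with GFP and 223 with Prox1 (0.74), and an upstream window at chr15:102018037-102018237 went from 109 to 212 (0.96). The promoter window of Krt8, the type II partner that lies next to it, was centred 990 bases upstream of the start site and went from 226 to 133 (-0.76). Krt18 also had 2 flanking windows over 2-fold lower, and its summed level was near level at 760 and 782 reads. The basal keratins Krt5 and Krt14 and the keratin Krt23 had no promoter window. Each had 1 flanking window over 2-fold lower, the strongest being downstream of Krt23, from 417 to 136 reads. Krt23 was the only member whose summed level passed 2-fold, at 616 and 283 reads (-1.12). The connexins differed from each other. Gjb1, the hepatocyte connexin 32, had the lowest promoter difference of all members, 75.7 to 33.1 reads (-1.20) at chrX:101375671-101375871, and its upstream window went from 246 to 75.7. Gjb2, connexin 26, had 392 and 362 reads at its promoter (-0.11), a difference smaller than the general shift.

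The epithelial transcription factors among the members held few windows with large differences. Across the 35 windows of the 6 transcription factor genes, 1 was over 2-fold lower and 1 over 2-fold higher, where 24.4% and 8.33% of all regions were. Both lay in Grhl2, a factor that maintains epithelial junction genes. The 16 windows of Grhl2 had a median difference of -0.02, and its promoter had 124 and 122 reads. Epithelial factors outside the members varied. In the wider epithelial list described below, Trp63 had 10 of 18 windows over 2-fold lower and 2 over 2-fold higher. Tfap2a had 1 lower and 2 higher of 12, and Grhl3 had 1 lower and 1 higher of 12. Ovol1 and Ovol2, repressors of EMT factors, had higher promoters, from 154 to 249 (0.70) and from 178 to 227 (0.35). The Ovol2 window at chr2:144330924-144331124 was the only 1 of the 32 member promoter windows whose nearest start site was that of another gene, 1700108N11Rik at 435 bases, while 6 of the 32 had a start site of another gene within 1 kb. Elf3, an epithelial ETS factor, went from 293 to 318, while Klf4 and Grhl1, open at 792 and 878 reads in 4in1_GFP_OE, were lower by less than the general shift (-0.17 and -0.16). The promoters of the splicing regulators Esrp1 and Esrp2 differed by -0.18 and 0.16. Upstream of Esrp2 a window at chr8:106145432-106145632, nearer to the start of Pla2g15, went from 341 to 98.3 reads, and upstream of Esrp1 the printed window went from 14.8 to 75.6. St14, the protease matriptase, had a promoter at 194 and 256 reads and an intron window that went from 79.5 to 168. Prss8, prostasin, had 2 upstream windows over 2-fold lower, from 465 to 202 reads and from 467 to 209.7.

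Summed over all windows of a gene, 34 members were lower with Prox1 and 7 (17.1%) were higher, where 87.9% of the 18440 protein-coding genes with a window were lower and 12.1% higher, summed in the same way. The median log2 ratio was -0.29 for both the members and all these genes. With 0 at the median of all regions, 25 members (61.0%) were higher and 16 lower, beside 68.4% of all these genes higher. The 7 were Epcam (0.77), Marveld2 (0.21), Pkp3 and St14 (0.16 each), Elf3 (0.13), Krt18 (0.04) and Cgn (0.02), and none of them reached 2-fold. Among the lower ones, Krt23 alone did (-1.12), where 2.07% of all these genes were over 2-fold lower and 0.884% over 2-fold higher. The summed level of all members went from 54103 to 42187 reads, a log2 ratio of -0.36 beside -0.41 for the whole table. The 17 members that hepatocytes use, such as Cdh1, Tjp1, Ocln, Krt8 and Gjb1, had a median of -0.49 over 131 windows, and the 14 that belong to other epithelia, such as Krt5, Krt14, Ovol1 and Cldn4, had -0.18 over 80. Few genes weigh heavily on these medians: Tjp1 held 38 of the 131 windows, and Grhl2 and Cdh3 held 16 and 15 of the 80. At promoters, where each gene had 1 window, the medians of the hepatocyte and the other list were 0.12 (16 genes) and 0.16 (8 genes). The remaining 10 members were in neither list.

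**Figure D4:**
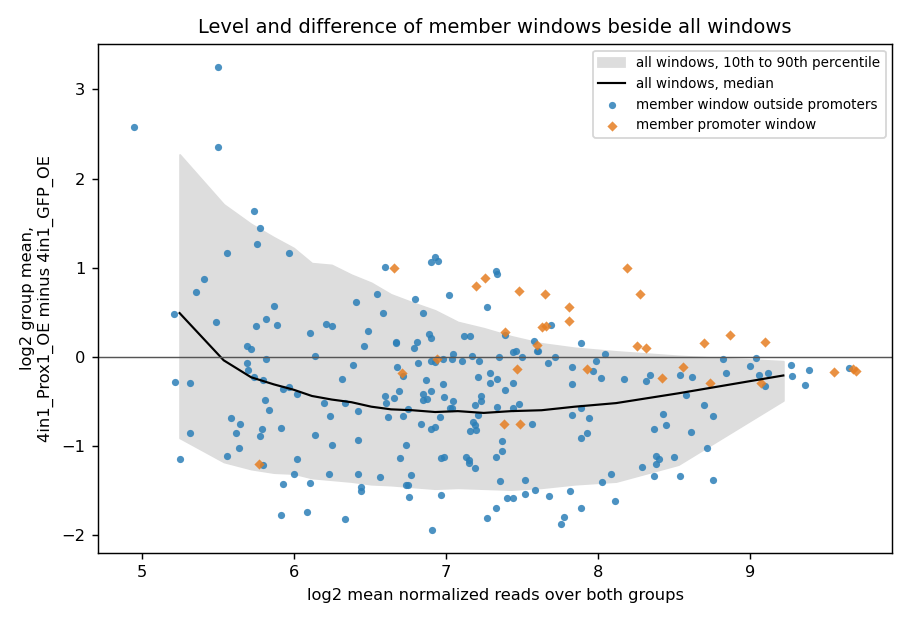
Difference of log2 group means against the mean level over both groups for member windows (diamonds at promoters, circles elsewhere), over the median (line) and the 10th to 90th percentile (grey) of all regions at the same level. Most promoter diamonds lie above the line, and the 3 members' windows with differences over 2 lie at levels below 6.

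The higher and the lower windows came from different levels. Of the 14 windows over 2-fold higher, 10 were below the median level of all regions, while 18 of the 57 over 2-fold lower were. With all regions split by level into 5 classes of equal size, 22.8% were over 2-fold higher in the weakest class and 0.187% in the strongest. A region is listed only where a peak was called, and which libraries' peaks formed the list is not given in the sources used here. A region with hardly any reads in 4in1_GFP_OE that was listed through 4in1_Prox1_OE had to be higher there. This may bear on the largest higher values among the members, which were chosen after their values were seen: Tjp1 at 8.6 and 81.9 reads (3.25), Dsg2 at 8.9 and 52.9 (2.58), Esrp1 at 14.8 and 75.6 (2.35), and Cldn12 at 25.9 and 80.7 (1.64). Repeat-masked letters took up at least 50% of 2 of the 14 higher windows (14.3%), beside 11.7% of all regions over 2-fold higher.

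AP-1 and TEAD letters were more frequent, and the E-box less frequent, in windows over 2-fold lower than in windows that changed by less than 2-fold, among the members and over all regions alike. AP-1 is the motif of FOS and JUN factors, and TEAD that of the Hippo pathway factors. The AP-1 letters were found in 25 of 57 members' windows over 2-fold lower (43.9%) and in 34 of 189 that changed by less than 2-fold (18.0%), beside 46.9% of all regions over 2-fold lower and 23.3% of all that changed by less. The TEAD letters were found in 18 (31.6%) and 25 (13.2%) of these windows, beside 26.7% and 17.8%. The E-box bound by ZEB and SNAI factors (CACCTG) showed the opposite, with 2 of 57 (3.51%) and 40 of 189 (21.2%), beside 5.63% and 12.1%. The 14 higher windows are too few for such shares, with 4, 3 and 4 matches to AP-1, TEAD and the E-box. Outside the members' promoters, windows with an AP-1 match had a median difference of -0.81 (60 windows) and those without -0.26 (168), while over all regions outside promoters the medians were -0.83 and -0.34. For the E-box these medians were -0.06 (35 windows) and -0.49 (193) among members, and -0.12 and -0.54 over all. The median GC content was 53.2% with and 50.2% without the E-box among members, and its part was not tested. The other motifs searched were near their share over all regions. The PROX1 half-site was found in 7 of the 260 windows (2.69%, beside 2.18% of all regions), 2 of them over 2-fold lower and 1 over 2-fold higher. Outside the members' promoters, windows with it had a median of -0.91 (7 windows) and those without -0.42 (221). Over all regions outside promoters these medians were -0.73 and -0.48. Of the motifs that epithelial and hepatocyte factors read, the GRHL letters (AACCNGTT) were found in 5 of the 260 windows (1.92%, beside 1.32%) and the HNF4 letters (CAAAGTNCA) in 2 (0.769%, beside 0.985%). The FOXA letters (TGTTTAC) were found in 10 windows (3.85%, beside 2.65%). The letters AGATAA, which zinc finger factors of the GATA family read, were found in 16 (6.15%, beside 6.72%). No searched motif contains another, all were searched on both strands, and a match describes letters, not binding.

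The E-box was common in the members' promoters. It was found in 11 of 32 promoter windows (34.4%), beside 11.4% of the strongest promoter windows of all protein-coding genes. Those 11 were Epcam, Crb3, Marveld2, F11r, Marveld3, St14, Esrp2, Grhl2, Cldn3, Cldn4 and Krt8. Their median difference was 0.40 with 7 of 11 higher, and the 21 without the E-box had 0.10 with 11 higher. Over all promoters, those with the letters had a median of -0.11 with 35.0% higher, and those without -0.20 with 15.8%. Promoters with the E-box were also weaker. Their median level (log2) was 7.49 against 8.26 without it among members, and 8.52 against 8.95 over all promoters. Median GC content was 65.7% against 69.2% among members and 66.2% in each set over all. The part of level and GC content in these differences was not tested. In the RefSeq promoter set (GRCm38.p6, the 250 bases before a start site), 28 members were matched with 39 entries, and 17 entries (43.6%) of 15 genes held the E-box, beside 17.2% of 32851 entries. Promoters of the members with a large higher and a large lower value show that the letters occur in each. The Epcam promoter at chr17:87635729-87635978, plus strand, holds the E-box at 2 places and does not overlap the Epcam window whose reads are given above. The Cldn4 promoter at chr5:134946935-134947184, minus strand, holds it close to the start site and AP-1 letters at 2 further places, and it overlaps the Cldn4 window in part. Capitals mark these letters.
Epcam promoter: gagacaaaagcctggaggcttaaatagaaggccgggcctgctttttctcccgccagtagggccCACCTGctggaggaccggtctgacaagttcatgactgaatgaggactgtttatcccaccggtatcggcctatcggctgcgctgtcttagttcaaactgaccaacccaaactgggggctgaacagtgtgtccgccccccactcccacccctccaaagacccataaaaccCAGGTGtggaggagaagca
Cldn4 promoter: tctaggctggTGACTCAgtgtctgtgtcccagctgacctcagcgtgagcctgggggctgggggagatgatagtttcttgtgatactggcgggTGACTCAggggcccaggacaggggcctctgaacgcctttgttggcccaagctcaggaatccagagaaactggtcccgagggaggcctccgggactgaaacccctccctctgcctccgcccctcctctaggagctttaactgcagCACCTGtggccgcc

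The members' promoters were set beside those of other lists of genes. In a wider epithelial list of 62 genes that shares no gene with the members, 15 of 48 promoters (31.2%) were higher, where 18.0% of all promoters were. The median of these 48 was -0.21, close to the -0.19 of all promoters. Over the 651 windows of this list the median was -0.34. Of them, 149 (22.9%) were over 2-fold lower and 49 (7.53%) over 2-fold higher, near the 24.4% and 8.33% of all regions. Chosen after their values were seen, higher promoters in that list included Ehf, an epithelial ETS factor, at 17.6 and 97.4 reads, the stress keratin Krt17 at 46.4 and 112, and the cornified envelope proteins Ppl at 152 and 289 and Evpl at 91.4 and 150.1. Lower ones included Gja1 (connexin 43), which fibroblasts express, at 185 and 76.7, Krt80 at 546 and 254, and Krt19. EMT transcription factors were lower at 6 of 6 promoters, where 82.0% of all promoters were lower, with a median of -0.39 (3 of 6 once the general shift is removed), from Snai2 at 559 and 296 reads to Zeb1 at 359 and 341 and Zeb2 at 378 and 377. The 14 fibroblast markers given above, genes of the mesenchymal cytoskeleton, adhesion and matrix, were lower at 13 of 14 promoters, with a median of -0.48 (9 of 14 once the general shift is removed), among them Vim at 689 and 443 and Cdh2 (N-cadherin) at 353 and 237. In 4in1_Prox1_OE the Cdh2 promoter was thus near the Cdh1 promoter, at 237 and 203 reads, while the Cdh1 promoter itself had changed little (0.13). Of the 14 hepatocyte marker genes, all but Serpina1a had a window, and their 36 windows had a median of 0.28 with 21 (58.3%) higher, beside -0.42 and 27.7% over all regions.

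**Figure D5:**
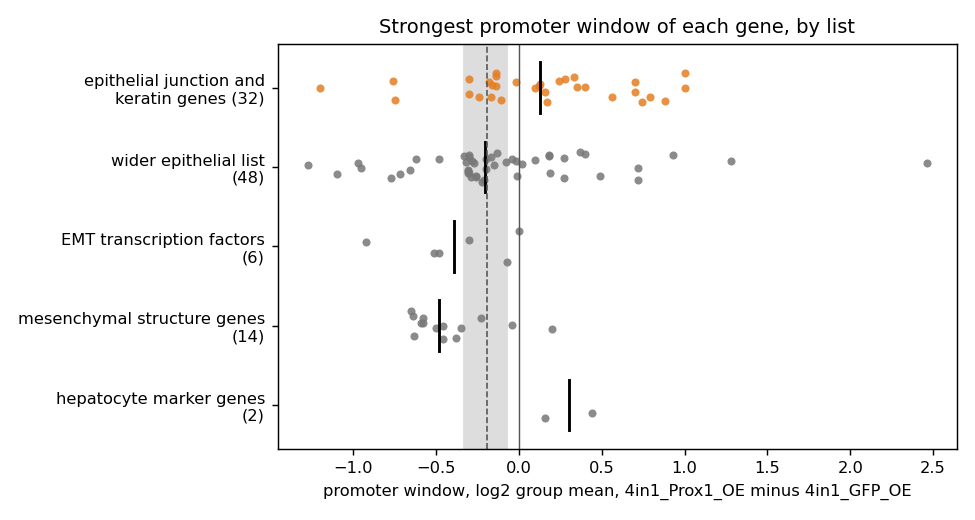
Difference of log2 group means (4in1_Prox1_OE minus 4in1_GFP_OE) in the strongest promoter window of each gene, for the members and the 4 other lists (number of genes in brackets), with the list's median as a black tick; the dashed line and grey band are the median (-0.19) and quartiles of all protein-coding promoters. Members had a median of 0.13 and mesenchymal genes of -0.48, and vertical scatter within a list has no meaning.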

How the data were processed

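ATAC-seq of 12 libraries in 4 groups is described by the labels, and 3 processed files were given. The authors trimmed reads (Trimmomatic 0.38), aligned them to mm10 (Bowtie2 2.3.4.3), removed duplicates and corrected base calls for Tn5 insertion bias according to their methods, called peaks (MACS2 2.1.2, though their reporting summary names another caller) and counted reads in recentred peaks with DiffBind 3.4.11. Versions are those of the submitters' processing notes. The deposited table gives the log2 mean of normalized read counts per group and over both groups. Its fold change, p-value and FDR columns, and the 2 lists of peaks chosen with them, are the authors' own comparison and were not used. Because only group means remain, no value per library, depth, interval of a difference or test could be computed, and differences are those of the deposited log2 means.

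Windows were assigned to genes with GENCODE M21 (comprehensive for gene bodies, basic for start sites and exons) on GRCm38, extended by 10 kb. Promoters were set at 1 kb and large differences at 2-fold. Reads are 2 to the power of the deposited log2 value. Motif letters were counted in GRCm38.p6 sequence, and promoter sequences came from RefSeq. Named are, in each role, the members with the largest promoter differences, the 5 largest rises and falls at or above the median level, and members without a promoter window. Members, lists and motifs were chosen with earlier results of these data known. 1 symbol of the wider list was not matched. Alternatives to the zero point, flank, promoter width, level filter and fold are given at the end. A median or share counted as moved when it left the 95% interval of its main value over windows (order statistics or Wilson), and a count when it changed over 1.5 times. Scripts were tested on simulated data and used Python 3.11.15, pandas 2.3.3 and numpy 2.4.6.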

Additional observations from a re-analysis of the deposited data

How the results depend on the processing

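The zero point decided the sign of the members' overall difference. With 0 at the median of all regions (-0.42), at the median of the 10% of regions with the highest level (-0.26) or at the log2 ratio of totals (-0.41), the median over the 260 windows went from -0.30 to 0.12, -0.04 and 0.11, and the share of lower windows from 70.8% to 45.8%, 51.9% and 45.8%. Windows over 2-fold lower went from 57 to 23, 36 and 24, and those over 2-fold higher from 14 to 27 under the first and the last of these. The promoter median rose from 0.13 to 0.54, 0.39 and 0.54, and kept its sign. With promoters set at 2 kb it was 0.04 in place of 0.13. With windows limited to the 133 nearest to a start site of a member, 33 were lower and 7 higher past 2-fold, out of fewer windows. A limit of 1.5-fold gave 96 and 27, a limit of 4-fold gave 0 and 3, and leaving out the 25% of regions with the lowest level gave 6 higher. In gene bodies alone, where 35 members have a window, 63.5% of windows were lower and 13 members had a higher sum in place of 7. With the same 3 zero points, chosen for the sums after the data were seen, 25, 19 and 25 members had a higher sum. Of the comparisons of single members' sums with the gene body alone or with the median over a member's windows, 11 changed sign. In gene bodies alone the sum became positive for Gjb1 (0.16 in place of -0.95), Esrp2 (0.23), F11r (0.33), Krt8 (0.21), Ovol2 (0.35), Marveld3 (0.13) and Dsg2 (0.06). The median over windows was positive for Crb3 (0.34) and Marveld3 (0.07), and negative for Krt18 (-0.30) and Cgn (-0.06), against their sums. A further 5 comparisons moved beyond the interval of the member's own windows and kept their sign, and 60 stayed within it. No paired analysis was possible because single libraries have no column in the deposited table. Leaving out replicates in turn, though planned, was not run either. Depth sets a limit mainly for windows with few reads, such as those at 8.6 and 8.9 mean reads with GFP.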
